A study of Homo sapiens with 4 samples.

Results

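The hypoxia and glycolysis genes described here are 33 genes chosen by name: the alpha subunits of the hypoxia-inducible factor (HIF), genes that HIF is known to induce, and glucose transporters and enzymes of glycolysis and of pyruvate use. They are 33 of the 19775 genes that a probe set annotated to a single gene represented. The members have 72 such probe sets; each gene is described by the brightest of them, and the other probe sets that were measured serve as a check. A further 2 probe sets, listed for SLC2A3 together with its close relative SLC2A14, were left out.

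RNA was taken from 2 established human lung cancer lines: A549 comes from an adenocarcinoma, and NCI-H358 from a bronchioloalveolar carcinoma. Each line carried either an empty vector or a vector for CHST11, a Golgi enzyme that sulfates chondroitin chains, and all cells had been through antibiotic selection for stable transduction. That makes 4 groups, A549 with the empty vector, A549 with CHST11, and the same pair for NCI-H358, and each group has 1 Affymetrix array. No label speaks of low oxygen or of any change in glucose, so as far as they say the cells were in ordinary culture in a CO2 incubator.

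Values are signals on a linear intensity scale. A gene counted as measured in a line when its signal reached 27.0, the 60th percentile of all deposited values, on at least 1 of the line's 2 arrays. By that rule 12271 genes were measured, 11448 of them in A549 and 11395 in NCI-H358. The median signal of the arrays lay between 15.9 and 16.3. Of 3 probe sets for CHST11, 1 showed the vector, with signals of 129 and 344 in A549 and 220.1 and 1058 in NCI-H358, empty vector before CHST11; the other 2 moved little. Epithelial markers fitted the labelled cell types: all 6 reached the filter on all 4 arrays, with summed signals of 23049 to 26023. Of 6 lung markers 3 to 4 reached it, and NKX2-1 was below it in A549. Of the leukocyte, endothelial and fibroblast markers, 1 of 5, 1 of 5 and 1 of 6 reached the filter on each array; the leukocyte marker in NCI-H358 was LCP1, at 438 and 404, against 18.4 and 17.3 in A549. The part of such cells in the results was not tested.

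HIF is a transcription factor made of an oxygen-labile alpha subunit, HIF1A or EPAS1, and the stable partner ARNT. When oxygen is available, prolyl hydroxylases of the EGLN family mark the alpha subunit for recognition by the VHL ubiquitin ligase and for destruction, so that HIF is controlled largely at the level of the protein. HIF binds DNA at the core letters ACGTG or GCGTG. Its known targets raise glucose uptake and glycolysis, divert pyruvate from the mitochondria to lactate, and include secreted factors that act on blood vessels. Many carcinoma cells also run glycolysis at a high rate in the presence of oxygen.

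The RefSeq promoter sequences of 5 glycolysis genes show what that core looks like in place, for a pair from each direction of the line comparison and a gene that did not pass it. Each is the 250 bases before the gene's most upstream listed start, on the strand of the gene, 5′ to 3′, with ACGTG or its reverse complement CACGT in capitals. All 5 carry ACGTG and are examples, not a sample of their groups. It was found for 18 of the 29 members with a promoter sequence. Among these it was found for 4 of 9 higher in NCI-H358, 9 of 12 lower there and 5 of 8 that did not pass. HK2 and ALDOC were higher in NCI-H358, GPI and ENO2 were lower there, and PGK1 did not pass the test between the lines. The windows lie on GRCh38.p14 at chr2:74833877-74834126 (plus strand) for HK2, chr17:28576896-28577145 (minus strand) for ALDOC, chr19:34364742-34364991 (plus strand) for GPI, chr12:6914330-6914579 (plus strand) for ENO2 and chrX:78103998-78104247 (plus strand) for PGK1.
HK2: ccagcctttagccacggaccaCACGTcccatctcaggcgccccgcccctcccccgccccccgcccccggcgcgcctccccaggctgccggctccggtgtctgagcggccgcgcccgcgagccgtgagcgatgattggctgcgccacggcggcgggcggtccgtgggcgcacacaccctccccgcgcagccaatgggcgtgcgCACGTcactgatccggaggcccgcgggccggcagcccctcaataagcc
ALDOC: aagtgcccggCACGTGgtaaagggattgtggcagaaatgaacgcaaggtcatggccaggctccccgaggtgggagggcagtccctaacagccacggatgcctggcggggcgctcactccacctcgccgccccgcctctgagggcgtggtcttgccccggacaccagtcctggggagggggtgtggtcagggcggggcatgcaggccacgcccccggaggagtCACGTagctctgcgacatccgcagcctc
GPI: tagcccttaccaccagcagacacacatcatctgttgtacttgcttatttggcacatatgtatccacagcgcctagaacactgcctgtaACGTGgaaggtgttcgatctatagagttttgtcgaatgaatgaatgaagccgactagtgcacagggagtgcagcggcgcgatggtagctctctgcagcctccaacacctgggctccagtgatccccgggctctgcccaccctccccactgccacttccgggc
ENO2: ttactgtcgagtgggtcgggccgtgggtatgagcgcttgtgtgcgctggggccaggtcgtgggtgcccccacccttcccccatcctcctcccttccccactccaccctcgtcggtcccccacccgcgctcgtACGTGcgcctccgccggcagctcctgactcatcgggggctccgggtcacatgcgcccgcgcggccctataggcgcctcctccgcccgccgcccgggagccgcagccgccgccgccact
PGK1: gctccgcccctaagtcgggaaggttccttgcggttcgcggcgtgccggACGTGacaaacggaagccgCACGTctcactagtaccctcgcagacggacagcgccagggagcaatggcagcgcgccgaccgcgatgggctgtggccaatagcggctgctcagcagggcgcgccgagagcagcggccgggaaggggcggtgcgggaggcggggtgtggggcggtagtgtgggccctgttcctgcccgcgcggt

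The letters ACGTG, read on both strands, occur at 2 places in the HK2 and PGK1 sequences, at 2 places in ALDOC, and at 1 place in GPI and in ENO2. In ALDOC the site farther from the start is the palindrome CACGTG, which is also the E-box of MYC and related factors and which counts as ACGTG on both strands. RefSeq promoter windows of 300 bases, from 250 before to 50 after a start, were found for 29 of the 33 members; VEGFA, SLC2A3, BNIP3L and NDRG1 had no entry. ACGTG was present in 21 of the members' 49 windows (42.9%), in 25.1% of the windows of all measured genes and in 21.4% of all 35116 windows. Split by the comparison of the lines, it was present in 5 of 12 windows of members higher in NCI-H358, in 9 of 18 of those lower there and in 7 of 19 of those that did not pass the test. GCGTG was present in 23 of the 49 windows (46.9%), against 47.8% of the windows of measured genes. These are matches of letters, not evidence of binding.

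**Figure D1:**
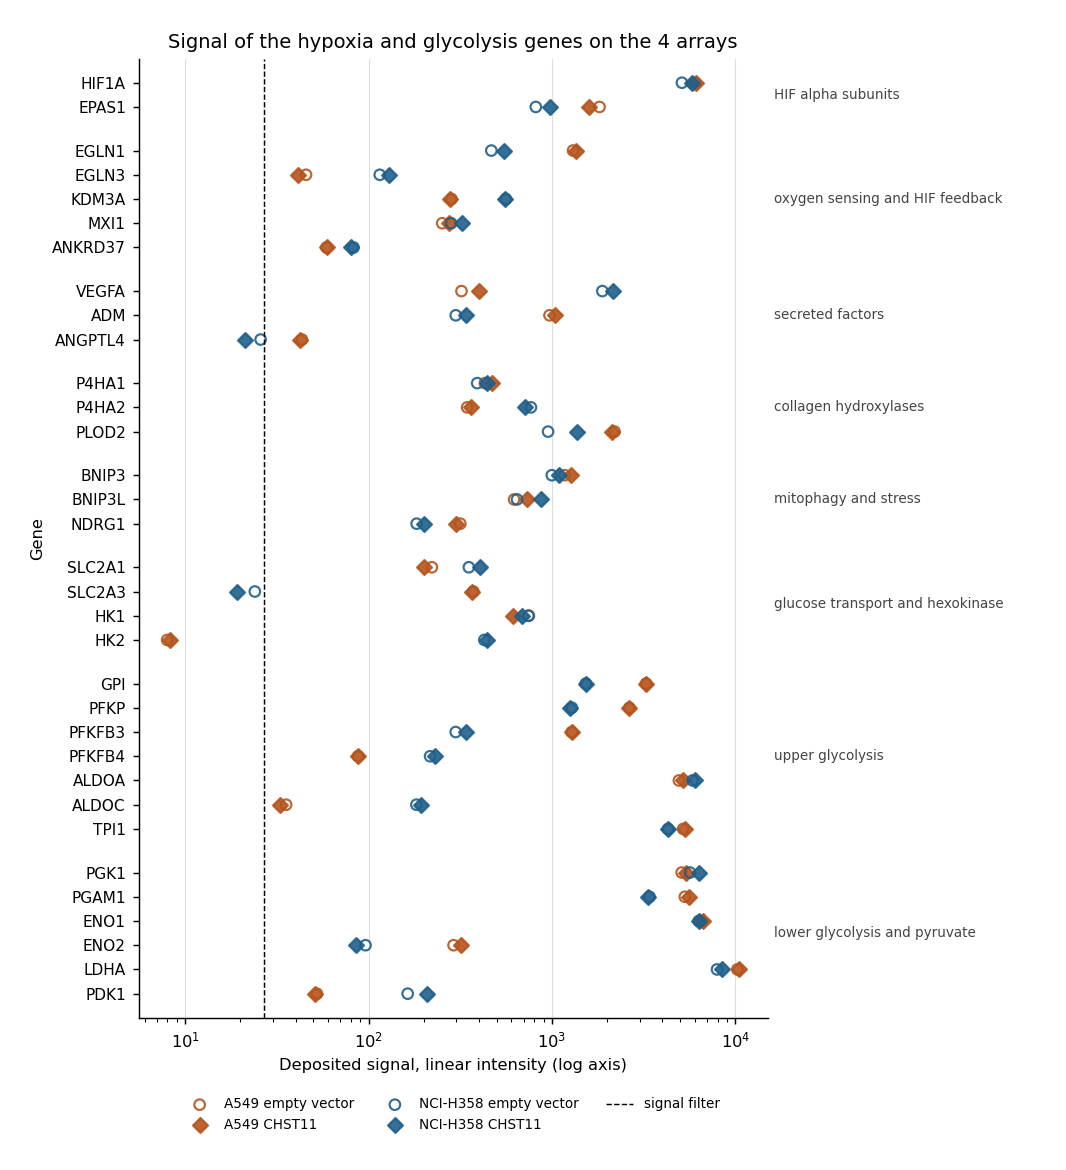
Deposited signal (linear intensity, log axis) of each member on the 4 arrays, grouped by role; open circles are empty vector arrays, diamonds are CHST11 arrays, orange is A549, blue is NCI-H358, and the dashed line is the filter at 27.0. The arrays of a line lie close together for most genes, and the wide gaps are between the lines, as for HK2 (7.97 and 8.27 against 427 and 444).

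The comparison with the largest differences was that of the cell lines. Of the 33 members, 10 were higher in NCI-H358, 14 were lower and 9 did not pass the test, and the median log2 difference, NCI-H358 minus A549, was -0.11. HK2, ALDOC, VEGFA, PDK1, EGLN3 and PFKFB4 stood highest in NCI-H358, and SLC2A3, PFKFB3, ENO2, ADM and EGLN1 stood furthest below A549. Calls were made at an adjusted p of 0.05 in limma over all 12271 measured genes. The fit had terms for cell line and vector, so each line's 2 arrays stood for it. A gene's own error came from the difference between the lines in their vector response, with 1 residual degree of freedom. limma moderated it with a prior variance drawn from all measured genes, which had 3.5 degrees of freedom. The error of a gene is thus in large part a variance shared by all genes. The labels do not say that the arrays came from separate cultures of a group. The p-values therefore rest on spread between these 4 arrays, pooled over genes, and not on spread between cultures. In such bulk RNA, fewer cells that express a gene and less RNA per cell cannot be told apart.

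The share called, 24 of 33 (72.7%), stood beside 64.5% of all measured genes, 33.9% higher and 30.6% lower in NCI-H358. For 30 members both arrays of a line lay on the same side of both arrays of the other, beside 85.6% of all measured genes. The typical size was larger, with a median absolute log2 difference of 0.92 for the members and 0.44 for all measured genes. The members were chosen with earlier results of these data known, so this only describes the list. In 21 members the difference was larger than 0.50, the SD of this difference between probe sets of the same gene. The share of all measured genes past 0.50 was not counted. Their differences had an SD of 1.18. Before dim lines were set to the filter, their median absolute difference was 0.49, just under that limit. A large part of all measured genes thus passed it too, and the count is not particular to the members. Of 15 members with more than 1 measured probe set, 14 had the same direction in all of them, and ENO1, which did not pass the test, was the exception. The calls depend on testing measured genes: with no signal filter, 6 members were called, and the other 18 were not. Calls fell among all genes too, to 1905 of 19775.

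Of the HIF alpha subunits, EPAS1 was lower in NCI-H358 and HIF1A did not pass the test. HIF1A, the ubiquitous alpha subunit, had signals of 6029 with the empty vector and 6067 with CHST11 in A549, against 5107 and 5817 in NCI-H358. The A549 arrays were the higher, but the difference did not pass the test (limma, log2 difference -0.15, SE 0.0966, adjusted p = 0.232). Without the NCI-H358 CHST11 array it passed, at -0.24 with an adjusted p of 0.0482, as it did with a variance trend (0.0464). EPAS1, the subunit also called HIF-2 alpha and expressed in lung epithelium and endothelium, read 1815 with the empty vector and 1593 with CHST11 in A549, against 816 and 969 in NCI-H358. It was 1.91-fold lower in NCI-H358 (limma, log2 difference -0.94, SE 0.135, adjusted p = 0.00391), and the lines did not overlap. Leaving out the A549 empty vector array took its adjusted p to 0.0580.

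Among the genes that sense oxygen or feed back on HIF, the 2 EGLN hydroxylases differed in opposite directions. EGLN1, the main prolyl hydroxylase at normal oxygen, read 1302 with the empty vector and 1359 with CHST11 in A549, against 467 and 544 in NCI-H358. It was 2.64-fold lower in NCI-H358 (limma, log2 difference -1.40, SE 0.0946, adjusted p = 4.17e-04), with all 3 measured probe sets between -1.40 and -0.94. EGLN3, a hydroxylase that HIF itself induces, read 45.6 with the empty vector and 41.2 with CHST11 in A549, against 115 and 129 in NCI-H358. It was 2.81-fold higher in NCI-H358 (log2 difference 1.49, SE 0.114, adjusted p = 5.88e-04, limma), and its other measured probe set gave 1.08. KDM3A, a histone demethylase induced by HIF, had signals of 283 and 278 in A549 and 560.1 and 554 in NCI-H358 and was 1.98-fold higher in NCI-H358 (adjusted p = 8.69e-04, limma). ANKRD37, a hypoxia-induced ankyrin protein, had 58.9 and 59.4 in A549 and 82.8 and 80.2 in NCI-H358, a smaller difference of 0.46 that still passed (adjusted p = 0.00953, limma). MXI1, a MYC antagonist of the MAX network, had 252 and 274 in A549 and 282 and 324 in NCI-H358 and did not pass (adjusted p = 0.109, limma).

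The secreted factors divided as well. VEGFA, the main growth factor of blood vessels, read 321 with the empty vector and 399 with CHST11 in A549, against 1881 and 2149 in NCI-H358. Both NCI-H358 arrays lay far above both A549 arrays, a 5.62-fold difference (limma, log2 difference 2.49, SE 0.0917, adjusted p = 9.04e-05). Its 4 measured probe sets were all higher in NCI-H358. The next brightest gave 2.25. The dimmer ones, below the filter in A549, gave at least 1.40 and 1.05. ADM, adrenomedullin, a vasodilator peptide, went the other way, with 969 with the empty vector and 1039 with CHST11 in A549, against 299 and 339.7 in NCI-H358. The A549 signal was 3.15-fold the NCI-H358 signal (limma, log2 difference -1.66, SE 0.0893, adjusted p = 2.24e-04). ANGPTL4, a secreted inhibitor of lipoprotein lipase, was dim everywhere: 43.3 with the empty vector and 42.1 with CHST11 in A549, against 25.8 and 21.3 in NCI-H358. Both NCI-H358 arrays were below the filter, so A549 was at least 1.58-fold higher, measured against the filter (adjusted p = 0.00212, limma). That call was lost without the A549 empty vector array (adjusted p = 0.0646) or the A549 CHST11 array (0.0611).

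The collagen-modifying hydroxylases, which shape the matrix that hypoxic cells lay down, gave 1 gene higher in NCI-H358, 1 lower and 1 not called. P4HA2, a catalytic subunit of prolyl hydroxylase for collagen, had signals of 344 and 363 in A549 and 767 and 710.5 in NCI-H358 and was 2.09-fold higher in NCI-H358 (adjusted p = 9.83e-04, limma). P4HA1, its paralog, had 431 and 472 in A549 and 391 and 444 in NCI-H358, with overlapping lines and no call (adjusted p = 0.307, limma). PLOD2, the lysyl hydroxylase of collagen telopeptides, read 2191 with the empty vector and 2121 with CHST11 in A549, against 951 and 1369.6 in NCI-H358. It was 1.89-fold lower in NCI-H358 (limma, log2 difference -0.92, SE 0.1601, adjusted p = 0.00719), and its 2 probe sets gave -0.95 and -0.92. The 2 NCI-H358 arrays stood apart from each other, and the call was lost without the A549 empty vector array (adjusted p = 0.141) or without the A549 CHST11 array (0.133).

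The mitophagy and stress genes differed little, with a median absolute log2 difference of 0.22. BNIP3 and BNIP3L are mitochondrial receptors that recruit the autophagy machinery. BNIP3 had signals of 1172 and 1268 in A549 and 997 and 1092 in NCI-H358, a difference of -0.22 that did not pass (adjusted p = 0.0787, limma). It passed under cyclic loess normalization (0.0449), with the median of its probe sets (0.0334) and with a variance trend (0.0216). BNIP3L had 621 and 733 in A549 and 644 and 871 in NCI-H358, with overlapping lines (adjusted p = 0.239, limma); the median of its probe sets passed, at 0.0288. NDRG1, a stress and differentiation gene strongly induced by hypoxia, had 316 and 299 in A549 and 183 and 199.9 in NCI-H358 and was 1.61-fold lower in NCI-H358 (adjusted p = 0.00409, limma).

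Glucose uptake and its trapping by hexokinase had wide gaps, with a median absolute log2 difference of 2.31: HK2 and SLC2A1 were higher in NCI-H358, and SLC2A3 was higher in A549. SLC2A1, the basal glucose transporter GLUT1, read 221 with the empty vector and 199.6 with CHST11 in A549, against 352 and 404 in NCI-H358. It was 1.795-fold higher in NCI-H358 (limma, log2 difference 0.84, SE 0.1196, adjusted p = 0.003700), but without the A549 CHST11 array its adjusted p was 0.0517. SLC2A3, the high-affinity transporter GLUT3, read 372 with the empty vector and 366 with CHST11 in A549, against 23.96 and 19.2 in NCI-H358. Both NCI-H358 arrays were below the filter, so the A549 signal was at least 13.7-fold higher (adjusted p = 4.47e-05, limma). Its other 2 measured probe sets were below the filter in NCI-H358 too, with 193 and 165 in A549 and 9.902 and 9.27 in NCI-H358 for the brighter of them. Probes of SLC2A3 may also detect SLC2A14, whose sequence is close to it.

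Hexokinases phosphorylate glucose on entry. HK1, the housekeeping form, had signals of 747 with the empty vector and 611 with CHST11 in A549, against 743 and 689.6 in NCI-H358. The lines overlapped and no difference was called (limma, log2 difference 0.08, SE 0.09699, adjusted p = 0.488). HK2, the inducible form bound to mitochondria and raised in many tumours, read 7.97 with the empty vector and 8.27 with CHST11 in A549, against 427 and 444 in NCI-H358. In A549 it lay below the filter on both arrays, so NCI-H358 was at least 16.1-fold higher (adjusted p = 2.67e-05, limma). A second measured probe set of HK2 showed the same direction at lower signal, 21.9 and 20.1 in A549 and 53.9 and 47.6 in NCI-H358. The remaining probe set had 12.2 and 10.04 in A549 and 26.1 and 21.6 in NCI-H358 and was below the filter on all 4 arrays.

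Upper glycolysis, from glucose phosphate to the triose phosphates, had 2 members higher and 4 lower in NCI-H358. GPI, which turns glucose phosphate into fructose phosphate, read 3255 with the empty vector and 3259.8 with CHST11 in A549, against 1529 and 1539 in NCI-H358 and was 2.12-fold lower in NCI-H358 (limma, log2 difference -1.09, SE 0.08705, adjusted p = 6.73e-04). PFKP, the platelet type of phosphofructokinase, had 2638 and 2635 in A549 and 1283 and 1259 in NCI-H358, 2.07-fold lower (adjusted p = 7.34e-04, limma). The 2 PFKFB enzymes, which make and break the fructose bisphosphate that activates phosphofructokinase, went apart. PFKFB3, with the higher kinase activity, read 1279.5 with the empty vector and 1289.5 with CHST11 in A549, against 298 and 338 in NCI-H358, which was 4.04-fold lower in NCI-H358 (limma, log2 difference -2.02, SE 0.0957, adjusted p = 1.63e-04). PFKFB4 read 87.6 with the empty vector and 86.96 with CHST11 in A549, against 216 and 229 in NCI-H358, which was 2.55-fold higher (limma, log2 difference 1.35, SE 0.0899, adjusted p = 3.97e-04).

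The aldolases split fructose bisphosphate. ALDOA, the main form in most cells, had 4917 and 5166 in A549 and 5834 and 5993 in NCI-H358; its arrays did not overlap between the lines, but the difference of 0.23 did not pass (adjusted p = 0.0741, limma). It passed with a cell line term only (0.0410) and with a variance trend (0.00303). ALDOC, the brain form, read 35.5 with the empty vector and 32.7 with CHST11 in A549, against 182 and 192 in NCI-H358. It was 5.49-fold higher in NCI-H358 (limma, log2 difference 2.46, SE 0.0985, adjusted p = 1.08e-04), against a dim A549 signal just above the filter. TPI1, which interconverts the triose phosphates, had 5185 and 5288 in A549 and 4289.9 and 4277 in NCI-H358 and was 1.22-fold lower in NCI-H358 (adjusted p = 0.0392, limma). TPI1 missed the threshold without the A549 empty vector array (0.0540) or the A549 CHST11 array (0.0621).

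Lower glycolysis and pyruvate use held 1 member higher and 3 lower in NCI-H358. PGK1, which makes the pathway's early ATP, had 5089.6 and 5392 in A549 and 5654 and 6333 in NCI-H358. The difference was 0.19 and did not pass (adjusted p = 0.121, limma), except with a variance trend (0.00837); 4 measured probe sets gave 0.11 to 0.32. PGAM1, phosphoglycerate mutase, had 5297 and 5574 in A549 and 3399 and 3348 in NCI-H358 and was 1.61-fold lower in NCI-H358 (adjusted p = 0.00285, limma). ENO1, the general enolase, had 6531 and 6691 in A549 and 6307 and 6311 in NCI-H358 and did not pass (adjusted p = 0.532, limma). ENO2, the neuronal enolase, read 290.5 with the empty vector and 317 with CHST11 in A549, against 96.2 and 84.8 in NCI-H358, 3.36-fold lower in NCI-H358 (limma, log2 difference -1.75, SE 0.113, adjusted p = 3.71e-04).

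LDHA, which reduces pyruvate to lactate, had 10242 and 10446 in A549 and 7935 and 8491 in NCI-H358, 1.26-fold lower in NCI-H358 (adjusted p = 0.0269, limma). The call was lost without the A549 empty vector array (log2 difference -0.35, adjusted p = 0.0753, limma) or the A549 CHST11 array (-0.32, 0.0859), with the difference at about its size. PDK1, the kinase that shuts off pyruvate dehydrogenase, read 52.2 with the empty vector and 50.7 with CHST11 in A549, against 163 and 209 in NCI-H358. It was 3.59-fold higher in NCI-H358 (limma, log2 difference 1.84, SE 0.128, adjusted p = 4.49e-04). Its other measured probe set was below the filter in A549 and gave at least 1.24. Genes such as PGK1, PGAM1, ENO1, LDHA, TPI1 and ALDOA have processed pseudogenes or close relatives, and how far those contribute to these probe sets was not tested. In all, 18 of the 24 called members stayed called with each array left out in turn. Without a signal filter the 6 that stayed called were VEGFA, ADM, HK2, PFKP, KDM3A and GPI.

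**Figure D2:**
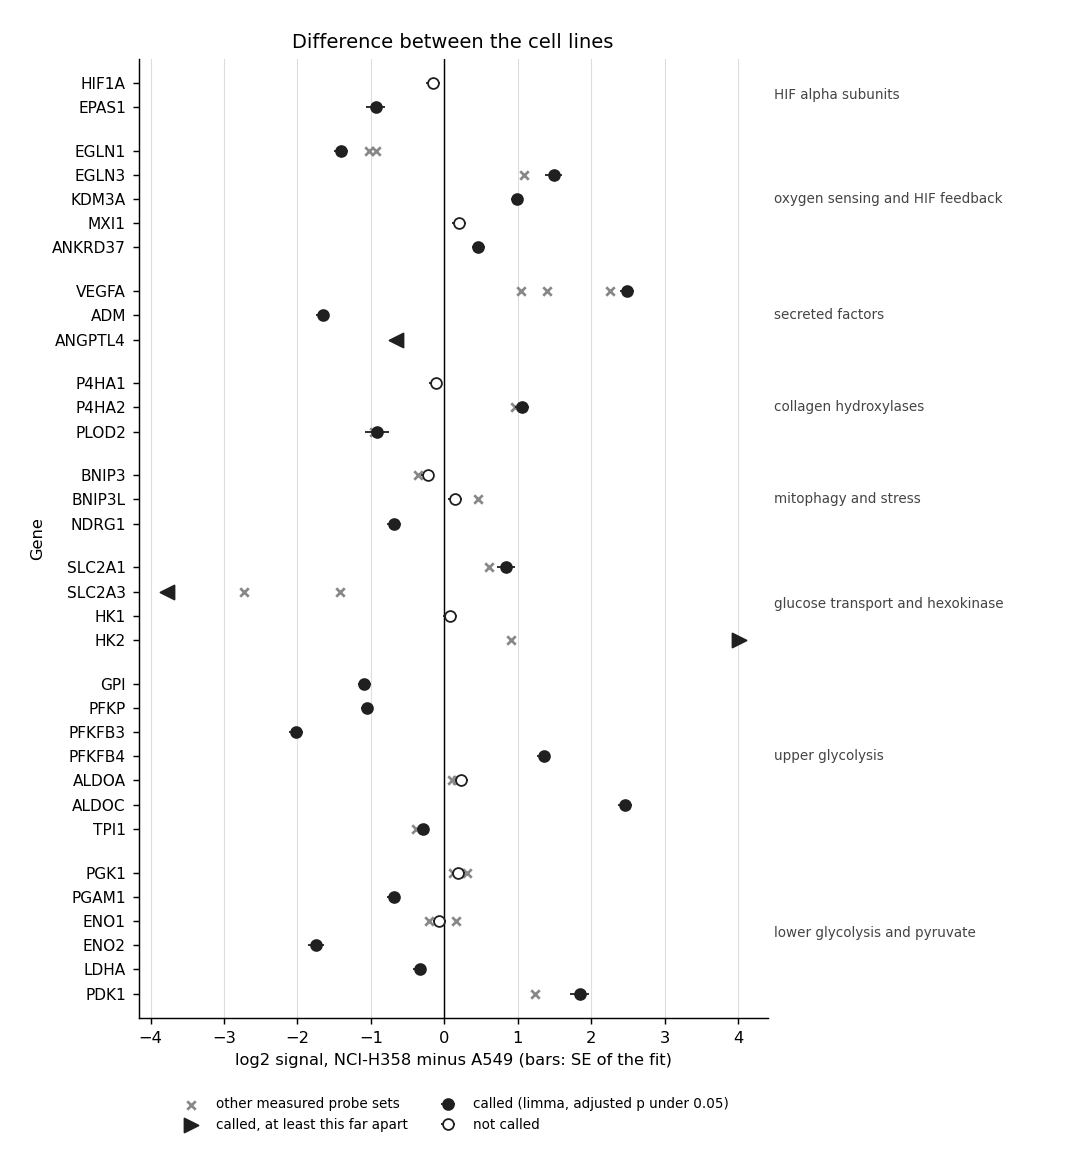
Log2 signal, NCI-H358 minus A549, of each member, grouped by role; circles are the fitted differences with the SE of the fit as bars, filled where called, crosses are the other measured probe sets, and triangles are lower bounds. Values to the right of 0 are higher in NCI-H358: HK2, VEGFA and ALDOC lie furthest right, and SLC2A3, PFKFB3 and ENO2 furthest left. Crosses of probe sets below the filter in the dimmer line are lower bounds too.

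The second comparison asked whether the CHST11 vector moved these genes within a line. By the rule of size, 0 of 32 members measured in A549 and 0 of 31 measured in NCI-H358 differed 1.5-fold between the vectors, beside 1.21% and 1.17% of all measured genes. With 1 array in each group there is no test within a line, and the sizes are those of these arrays. As a gauge of scatter on an array, log2 ratios scattered between probe sets of the same gene with an SD of 0.16 (A549) and 0.17 (NCI-H358), which leaves out the spread between cultures. RNA quality controls moved with the arrays too. The ratio of the 3′ to the 5′ probe set of actin was 2.40 and 2.14 in A549 and 2.06 and 2.32 in NCI-H358, empty vector before CHST11. That of GAPDH was 2.64 and 2.14 in A549 and 2.14 and 2.19 in NCI-H358. Their part in the result was not tested.

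In A549 the log2 ratios, CHST11 minus empty vector, ran from -0.29 to 0.32 with a median of 0.01, the same as the 0.01 of all measured genes. They were above 0 in 19 of 32 members (59.4%), beside 54.7% of all measured genes, and in 15 to 21 under the alternatives. In 4 members (12.5%) the ratio was larger than the SD between probe sets, beside 27.8% of all measured genes. VEGFA had the highest, 0.32, from signals of 321 and 399; its other probe set measured in A549 gave 0.05. BNIP3L followed with 0.24, and with 0.31 in its other probe set. HK1 had the lowest, -0.29, from 747 and 611, and EPAS1 had -0.19. The glucose transporters had ratios of -0.15 for SLC2A1 and -0.02 for SLC2A3. The other probe set of SLC2A1 gave -0.41, beyond the SD, but from dim signals of 28.4 and 21.4, the second below the filter. Those of SLC2A3 gave -0.23 and 0.15. HIF1A, GPI, PFKP, PFKFB3 and PFKFB4 lay between -0.01 and 0.01.

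In NCI-H358 the ratios ran from -0.18 to 0.53 and leaned to higher values with CHST11. Their median was 0.13, beside 0.003 for all measured genes, and 23 of 31 (74.2%) were above 0, beside 50.7%. Across the alternatives that count was 19 to 27 and the median 0.05 to 0.17, the lowest of both with the median of a gene's probe sets. In 13 members the ratio was larger than the SD between probe sets, 12 higher and 1 lower with CHST11, or 41.9% beside 30.3% of all measured genes. Only 6 of 14 members with more than 1 probe set measured in NCI-H358 had ratios of a single sign in all of them; in A549 it was 9 of 13. The same share was not counted over all genes with several probe sets, so these counts have no background beside them. Among the members that have several, the lean was not carried by all probe sets.

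PLOD2 had the highest NCI-H358 ratio, 0.53, from signals of 951 and 1369.6. Its other probe set, at 796 and 857, gave 0.11. BNIP3L had 0.43, from 644 and 871, and 0.07 in its other probe set. PDK1 had 0.36, from 163 and 209, and 0.20 in its other measured probe set. These 3 were the members that differed by a log2 ratio of at least 0.32 in NCI-H358, beside 9.13% of all measured genes. In A549 there were 0, beside 7.12%.

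Smaller ratios above the SD between probe sets came from EPAS1 (0.25), EGLN1 (0.22), SLC2A1 (0.20) and MXI1 (0.20). VEGFA at 0.19 was among them, but its 4 probe sets ran from -0.69 to 0.20, the lowest from signals of 71.0 and 44.1. EGLN1 and SLC2A1 also had a measured probe set of the other sign, at -0.11 and -0.13. The third measured probe set of EGLN1 gave 0.10. The median signal of the EGLN1 probe sets is that of the one at -0.11, so it adds nothing to it. HIF1A, ADM, P4HA1 and PFKFB3 had ratios of 0.19, 0.19, 0.18 and 0.18. ENO2 was the member below 0 by more than that SD, at -0.18. The glycolytic enzymes GPI, PFKP, TPI1, PGAM1 and ENO1 lay between -0.03 and 0.01.

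**Figure D3:**
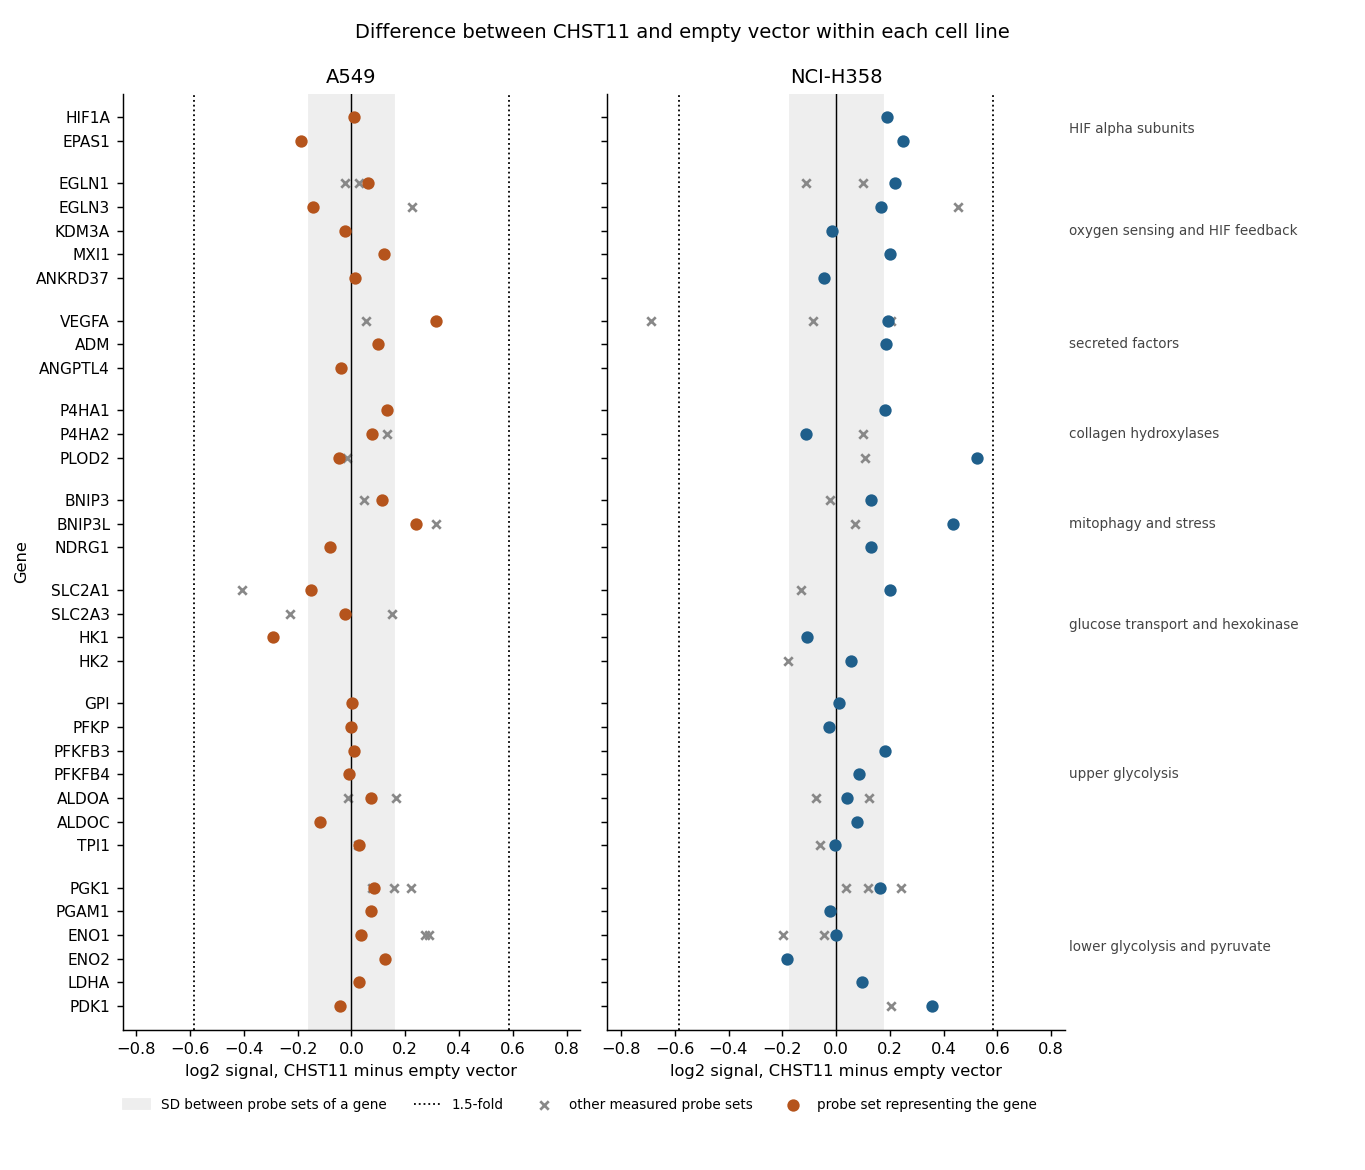
Log2 signal, CHST11 minus empty vector, of each member in A549 (left) and NCI-H358 (right), grouped by role; dots are the probe sets that represent the genes, crosses other measured probe sets, the grey band is the SD between probe sets of a gene and dotted lines mark 1.5-fold. No dot reaches the dotted lines, and 13 dots in NCI-H358 and 4 in A549 lie outside the band.

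**Figure D4:**
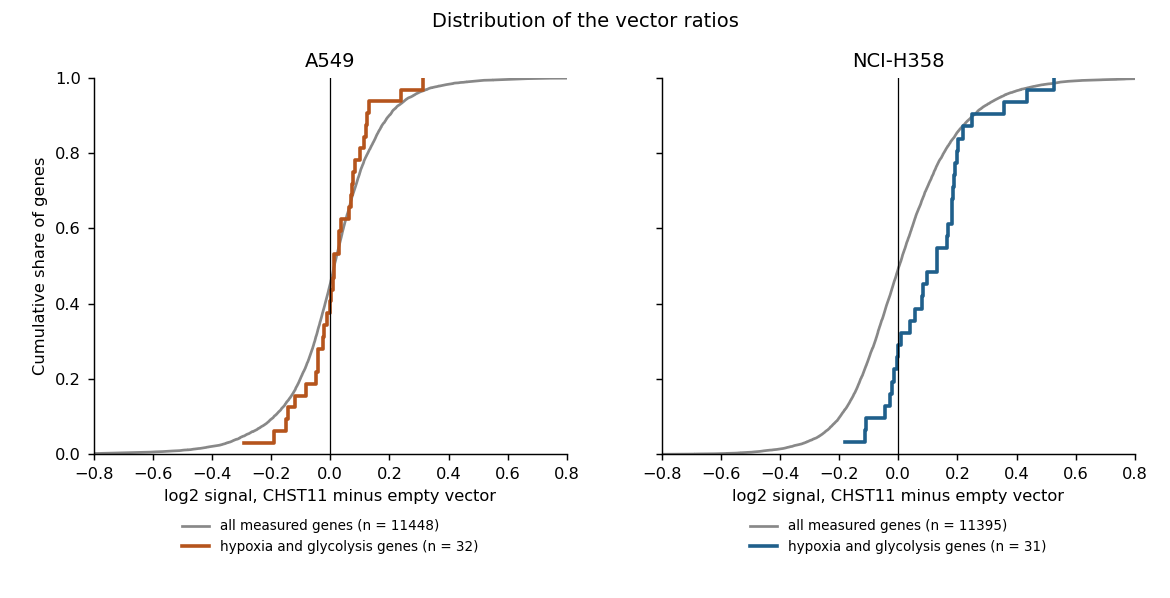
Cumulative share of genes (vertical axis, from 0 to 1) by log2 signal, CHST11 minus empty vector, for the members (coloured steps) and all measured genes (grey) in each line. In A549 both curves cross 0 at similar shares, and in NCI-H358 the members' curve lies to the right, with a median of 0.13 beside 0.003.

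Set side by side, 30 members were measured in both lines. In 14 of them both ratios were above 0, or 46.7%, beside 26.2% of all genes measured in both lines. That count depends on the shares above 0 in each line, 59.4% in A549 and 74.2% in NCI-H358. It is therefore not a separate sign of a shared response. The 2 ratios had the same sign in 17 members, or 56.7%, beside 47.7% of all genes measured in both lines. A joint fit with limma, in which the lines stand in as the only repeats of the vector, called 0 members and 0% of all measured genes at an adjusted p of 0.05. At an unadjusted p under 0.05 it held 2 members, BNIP3L and VEGFA, or 6.06%, beside 3.05% of all measured genes; across its alternatives that count was 0 to 3. BNIP3L had a shared ratio of 0.34 (unadjusted p = 0.0217, limma) and VEGFA of 0.25 (unadjusted p = 0.0439, limma), both with an adjusted p of 1. EPAS1, SLC2A1 and EGLN3 had ratios of opposite sign in the lines, -0.19 and 0.25, -0.15 and 0.20, and -0.14 and 0.17. The other measured probe set of EGLN3 was above 0 in both lines, at 0.22 and 0.45, and that of SLC2A1 was below 0 in both, at -0.41 and -0.13. Both were dim in A549, at 37.5 and 43.8 for EGLN3 and 28.4 and 21.4 for SLC2A1. Whether the lines differ in their response could not be tested with 1 array in each group.

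Other genes of the pathway also lay on both sides. Of 110 other genes listed by role, 101 had a probe set of their own and 87 were measured. Of these, 34 were higher in NCI-H358, 26 lower and 27 not called, which is 69.0% called beside 64.5% of all measured genes. Their median absolute log2 difference was 0.56, beside 0.92 for the members and 0.44 for all measured genes. These lists too were chosen with earlier results of these data known. Named below are, for each list, the called genes with the highest and lowest fitted differences, up to 2 each way, and a set list of isozyme partners of the members.

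Of the 14 measured HIF partners and regulators, 5 were higher and 2 lower in NCI-H358. CITED2, which competes with HIF for its coactivators, had 138 and 131 in A549 and 415 and 475 in NCI-H358, a difference of 1.72 (adjusted p = 3.29e-04, limma). The coactivator CREBBP was higher by 0.53 (adjusted p = 0.03296, limma), but its other measured probe set gave -0.03. ARNT2, a paralog of ARNT, had 116 and 141 in A549 and 14.1 and 10.9 in NCI-H358 and was at least 4.73-fold higher in A549; CITED4 differed by -0.74. The core partners did not pass the test: ARNT had 101 and 91.1 in A549 and 108 and 123 in NCI-H358, VHL 45.2 and 64.3 in A549 and 51.9 and 35.9 in NCI-H358, and HIF1AN, the asparaginyl hydroxylase of HIF, 154 and 158 in A549 and 153 and 138 in NCI-H358. The 3 measured probe sets of HIF1AN gave differences from -0.75 to -0.10, with any line below the filter set to it. EGLN2, the third prolyl hydroxylase, was below the filter on all 4 arrays, between 6.75 and 8.39.

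Among 27 other hypoxia targets, 10 were higher and 9 lower in NCI-H358. CA12, a cell surface carbonic anhydrase that acidifies the medium, had 3168 and 3499 in A549 and 18.01 and 18.9 in NCI-H358, at least 123-fold higher in A549 (adjusted p = 2.62e-05, limma). The 6 measured probe sets of CA12 gave differences from -6.95 to -0.04, with any line below the filter set to it. ANG, angiogenin, was at least 4.66-fold higher in A549. In the other direction, LOX, which crosslinks collagen, was at least 2.55-fold higher in NCI-H358, and BHLHE41, a circadian repressor, at least 2.53-fold. Of 5 measured genes of the MAX network, 2 were higher in NCI-H358, MXD1 (at least 3.77-fold) and MAX (log2 difference 0.90), and 1 was lower, MXD3 (-0.36).

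Of 27 measured isozymes and neighbours in glycolysis and pyruvate use, 11 were higher and 9 lower in NCI-H358. The phosphatase and kinase that act on pyruvate dehydrogenase stood at the ends. PDP1, the activating phosphatase, had 193 and 170.4 in A549 and 1521 and 1709 in NCI-H358, 8.89-fold higher in NCI-H358 (adjusted p = 9.79e-05, limma). PDK4, an inhibiting kinase like PDK1, had 465 and 519 in A549 and 27.8 and 34.8 in NCI-H358, 15.8-fold lower there (adjusted p = 3.41e-05, limma), opposite to PDK1. The other measured probe set of PDK4 gave -0.81, with any line below the filter set to it. SLC2A10, another glucose transporter, was at least 2.84-fold higher in NCI-H358, and PCK2, mitochondrial PEP carboxykinase, differed by -2.39.

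Partners of the members behaved unevenly. PFKM, the muscle type of phosphofructokinase, was higher in NCI-H358 by 0.83 (adjusted p = 0.00192, limma), where PFKP was lower, and PFKL, the liver type, did not pass (130.3 and 140.0 in A549 and 133 and 125 in NCI-H358). ENO3, the muscle enolase, differed by -1.82, in the direction of ENO2, and LDHB by -0.47, in the direction of LDHA. Named after their values were seen, LDHC, the testis form, was 2.83-fold higher in NCI-H358 (adjusted p = 4.70e-04, limma), opposite to LDHA. PDK3 was 2.38-fold higher there, in the direction of PDK1, and PFKFB2 3.41-fold lower, in the direction of PFKFB3. GAPDH and PKM, single steps of the main path, did not pass. GAPDH had 10817 and 11300.3 in A549 and 10291 and 9558 in NCI-H358. PKM had 3028 and 3068 in A549 and 3783 and 3435 in NCI-H358. The other measured probe set of PKM gave 0.98, with any line below the filter set to it.

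Of 7 measured ligands and receptors, 3 were higher and 1 lower in NCI-H358. NRP2, a coreceptor of VEGF family ligands, differed by 1.59, the ligand VEGFC by 0.61 and the coreceptor NRP1 by -1.10. All 7 family members of the hydroxylases and of NDRG1 were called, beside 64.5% of all measured genes. Of the 7, 3 were higher and 4 lower in NCI-H358. PLOD3 differed by 1.14 and P4HB, the shared beta subunit of collagen prolyl hydroxylase, by 0.68; P4HA3 differed by -1.94 and NDRG3 by -1.16.

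**Figure D5:**
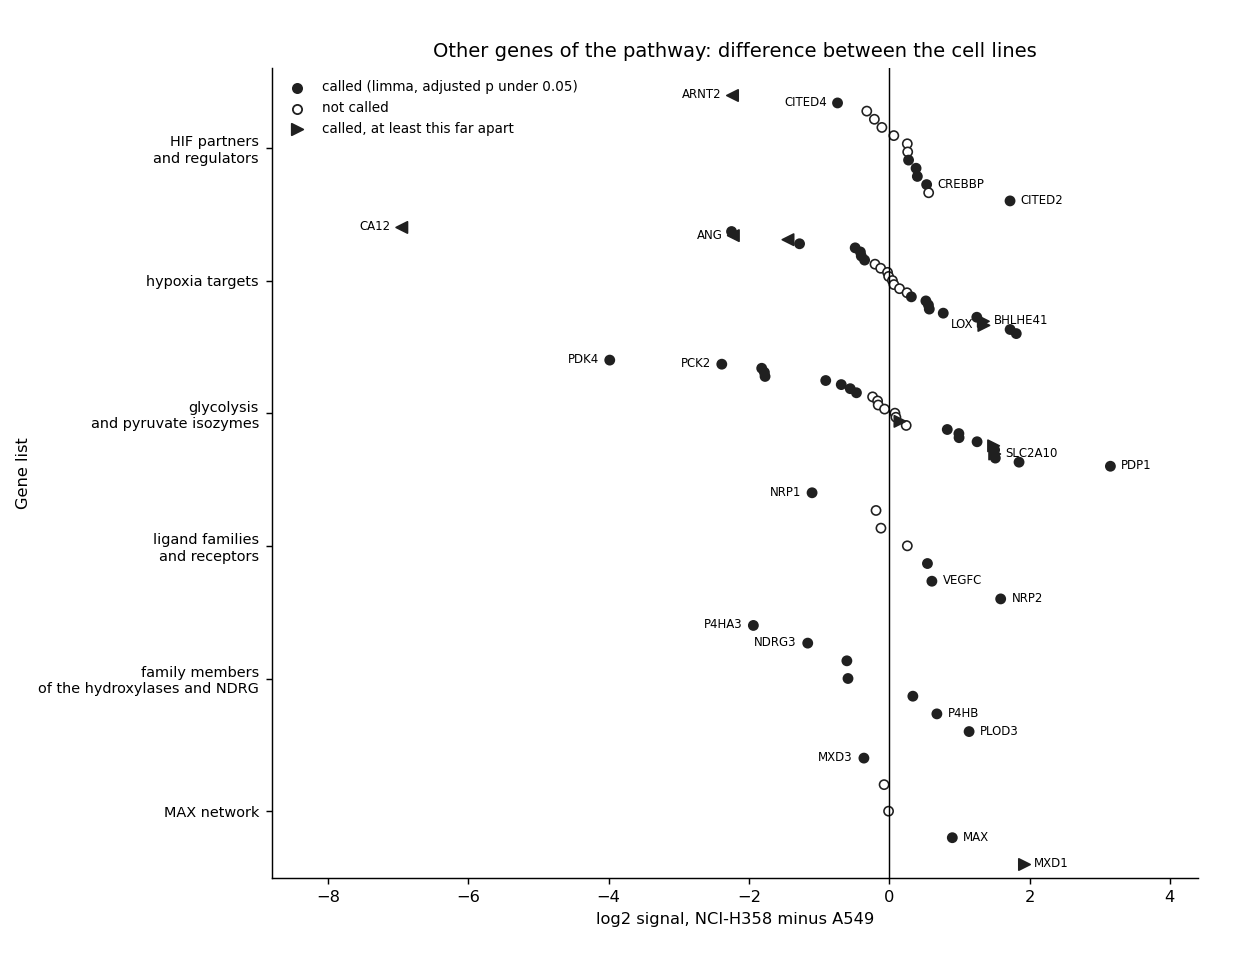
Log2 signal, NCI-H358 minus A549, of the 87 other measured genes of the pathway in 6 lists; filled symbols are called by limma, open ones are not, and triangles are lower bounds of genes below the filter in the dimmer line. Each list holds genes on both sides of 0, with CA12 and PDK4 furthest left and PDP1 furthest right.

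Between the vectors, 0 of the other pathway genes measured in A549 and 2 of those measured in NCI-H358 reached 1.5-fold. SLC16A7, a monocarboxylate transporter, read 137 and 208 in NCI-H358, a ratio of 0.60. SLC2A12, a glucose transporter, read 22.6 and 39.9, a ratio of 0.82, with its empty vector array below the filter. The wider list had a median ratio of 0.02 in A549. In NCI-H358 its median was 6.48e-05, beside 0.13 for the 31 members. Of the other pathway genes, 48 of 81 had a ratio above 0 in A549, and 42 of 83 did in NCI-H358.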

How the data were processed

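The platform was a 1-colour Affymetrix array of 54675 probe sets, read with biotin-labelled cRNA. The authors deposited linear intensities made with MAS5, per the submitters' processing notes; version, scaling target, detection calls and any later normalization were not given in the sources used here.

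Signals below 16.1, the overall 50th percentile, were raised to it before log2. A gene was measured in a line at a signal of at least 27.0 (60th percentile) on 1 of its 2 arrays. Annotation gave a single gene symbol for 41091 probe sets; 99.9% of these matched RefSeq by Entrez ID. Each gene was read from its brightest probe set by mean log2 signal. Lines and the shared vector difference were tested in R 4.3.3 with limma 3.58.1 (functions lmFit and eBayes, cell line and vector terms, 1 residual degree of freedom, Benjamini-Hochberg adjusted p of 0.05), checked on simulated data. Where both arrays of the dimmer line were below the filter, that line was set to the filter, which makes the fold a lower bound. Within a line the rule was 1.5-fold. Promoter sequences are from RefSeq (GRCh38.p14). Python 3.11.15, NumPy 2.4.6, pandas 2.3.3 and matplotlib 3.10.9 made tables and plots.

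The members, the 6 lists of other pathway genes and the marker lists were chosen with earlier results of these data known. All members are named. Of each other list the 2 highest and 2 lowest called genes by fitted difference are named, with any at least 1.5-fold apart between vectors, and isozyme partners. Alternatives were quantile, median and cyclic loess normalization, other floors, filters and sizes, the median of the probe sets, other model terms, a variance trend, and each array left out.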

Additional observations from a re-analysis of the deposited data

How the results depend on the processing

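No called difference of the 33 members changed sign under any alternative run; the other genes were counted but not followed singly. With no signal filter, limma called 1905 of 19775 genes between the lines, with 3 members higher and 3 lower in NCI-H358. The fitted differences of the members were unchanged there. The prior variance of limma had 0.37 degrees of freedom with no filter, against 3.5 in the main fit. Its part in the fall was not tested. Other alternatives kept all 3 counts within 1.5 times, except for leaving out an array. That gave 5345 to 6470 called genes, 9 to 10 members higher and 9 to 15 lower in NCI-H358, with the lowest of the last without the A549 empty vector array. Within a line, counts of genes followed the size chosen. In A549 they were 13 at 2-fold, 815 at a log2 size of 0.32 and 57 with a filter at the 75th percentile, against 138. In NCI-H358 they were 6, 1040 and 44, against 133, and 3 members passed a log2 size of 0.32, against 0 at 1.5-fold. No member reached 1.5-fold in A549 under the normalizations, floors or filters run. The labels carry no replicate numbers; the fit of the vectors holds the cell line as its block and called 0 genes, as did the fit with no cell line term. Signals near the filter limit ALDOC and EGLN3 in their dimmer line, and ANGPTL4, HK2 and SLC2A3 have only a bound there.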
